A study of Mus musculus with 8 samples.

Results

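The Ifit genes (interferon-induced proteins with tetratricopeptide repeats) were followed in mouse bone marrow dendritic cells exposed to killed bacteria. The members are Ifit1, Ifit2, Ifit3 and Ifit3b, chosen by name, and they make up 4 of the 55376 genes in the deposited count table. Ifit3b had too few reads in PM samples to pass the filter on low counts there and passed it through the PH samples alone, so its passing is no support for a difference. Bone marrow dendritic cells (BMDCs) are antigen-presenting cells grown from bone marrow. One group was stimulated overnight with heat-inactivated P. melaninogenica (PM) and the other with heat-inactivated P. heparinolytica (PH). By its title, the series belongs to work on how the microbiome shapes the effects of checkpoint blockade in myeloma. There were 3 PM and 3 PH samples, named by the sample ids 1, 3 and 4, and no untreated cells, so no value below says what either bacterium did relative to rest. Strain, sex and age of the mice, the culture conditions, and the bacterial dose are not stated in the labels.

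IFIT proteins bind RNA and are strongly induced by interferon in many cell types. Interferon receptors act through the kinases Jak1 and Tyk2 on the transcription factor complex ISGF3, which includes Stat2 and Irf9 and binds the interferon-stimulated response element (ISRE) in promoters. Ifit1 binds mRNA whose cap lacks ribose methylation on the first transcribed base, as viral mRNA often does, and blocks its translation. Ifit2 also binds RNA and in mice limits the spread of several viruses in the nervous system. In human cells IFIT3 binds IFIT1 and stabilises it, and mouse Ifit3b is a near copy of Ifit3. In human cells, IFIT1 and IFIT2 also bind the translation initiation factor eIF3.

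The 4 genes lie on the plus strand of chromosome 19 (GRCm38), in the order Ifit2 (34550710 to 34576419), Ifit3 (34583531 to 34588731), Ifit3b (34607970 to 34613401) and Ifit1 (34640871 to 34650009), a span of 99.3 kb. Ifit1bl1 and Ifit1bl2, further Ifit-like genes, lie between them on the minus strand. No exon of these 6 genes overlaps an exon of another gene in the deposited table. The promoters are shown because the 4 genes moved together. Each is 300 bases, from 250 before to 50 after the RefSeq start, on the plus strand of GRCm38.p6. Capitals mark matches to the core of the ISRE, searched on both strands as GAAANNGAAA, which here all lie on the minus strand, so that the plus strand shows the reverse complement. The first is chr19:34640639-34640938, the second chr19:34583279-34583578, the third chr19:34607707-34608006 and the last chr19:34550444-34550743.
Ifit1 promoter: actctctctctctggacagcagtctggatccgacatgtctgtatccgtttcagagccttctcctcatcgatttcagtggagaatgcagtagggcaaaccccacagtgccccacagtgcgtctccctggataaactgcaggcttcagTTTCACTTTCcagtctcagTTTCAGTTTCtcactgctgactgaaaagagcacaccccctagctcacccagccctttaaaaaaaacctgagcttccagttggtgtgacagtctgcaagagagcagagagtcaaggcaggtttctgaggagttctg
Ifit3 promoter: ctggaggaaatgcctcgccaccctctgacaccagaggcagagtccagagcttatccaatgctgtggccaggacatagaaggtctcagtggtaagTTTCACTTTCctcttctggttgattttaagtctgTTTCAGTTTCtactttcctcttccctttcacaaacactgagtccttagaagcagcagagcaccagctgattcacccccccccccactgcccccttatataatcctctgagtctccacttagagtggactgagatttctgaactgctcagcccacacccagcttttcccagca
Ifit3b promoter: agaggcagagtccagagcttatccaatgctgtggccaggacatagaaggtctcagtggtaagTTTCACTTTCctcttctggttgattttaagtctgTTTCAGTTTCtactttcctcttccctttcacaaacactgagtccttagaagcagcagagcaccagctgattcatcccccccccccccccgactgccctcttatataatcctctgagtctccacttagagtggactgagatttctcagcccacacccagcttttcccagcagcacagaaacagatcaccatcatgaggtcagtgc
Ifit2 promoter: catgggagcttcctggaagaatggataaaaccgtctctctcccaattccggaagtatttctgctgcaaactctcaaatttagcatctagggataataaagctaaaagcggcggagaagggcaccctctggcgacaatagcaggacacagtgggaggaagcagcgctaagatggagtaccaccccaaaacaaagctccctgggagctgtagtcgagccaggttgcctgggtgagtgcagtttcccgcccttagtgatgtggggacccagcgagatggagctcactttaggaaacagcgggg

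The Ifit1, Ifit3 and Ifit3b promoters held 2 ISRE core matches each, and in each of them 1 match read TTTCACTTTC and the other TTTCAGTTTC. Counted from the start site, the Ifit1 matches covered -104 to -95 and -85 to -76. Those of Ifit3 covered -156 to -147 and -122 to -113, and those of Ifit3b -188 to -179 and -154 to -145. Of all 32851 RefSeq promoters of this length, 1131 (3.44%) held the core. Neither of the RefSeq promoters of Ifit2 held it. The promoter of its upstream start, printed above, held 1 match to the gamma-activated site (searched as TTCNNNGAA, which reads the same on both strands in its fixed letters) at -241 to -233, a motif found in 2726 promoters (8.30%). A match is only a description of these letters, and the absence of one in this window says nothing of a factor's binding elsewhere. The promoters of Ifit3 and Ifit3b were identical at 258 of 260 aligned positions (99.2%). The start of Ifit1 lay 146 bases from a start of Ifit1bl2 on the other strand, so the same 2 matches lie in the promoter windows of both. Among genes with a RefSeq promoter, 48 of the 178 called lower with PM (27.0%) held the core, against 2 of the 74 called higher (2.70%) and 368 of the 10366 not called (3.55%). These shares include the Ifit genes and were not tested.

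**Figure D1:**
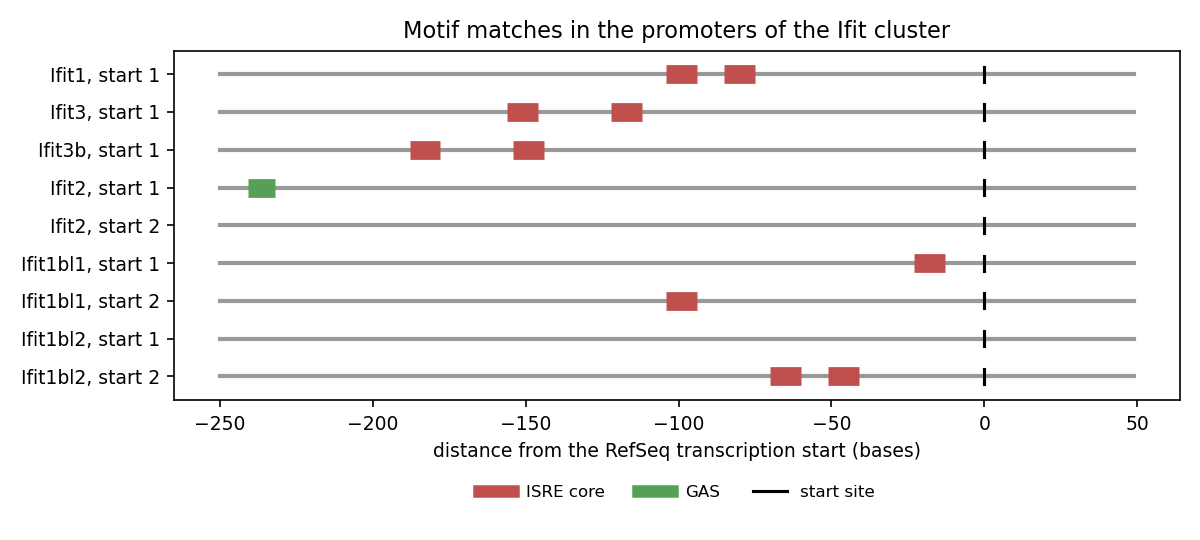
Positions of motif matches in the RefSeq promoters of the 4 Ifit genes and of Ifit1bl1 and Ifit1bl2. The horizontal axis is the distance from the transcription start in bases, red boxes are ISRE core matches, the green box is a gamma-activated site and black ticks are start sites. Ifit1, Ifit3 and Ifit3b each show 2 ISRE core matches before the start, while Ifit2 shows none at either start.

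All 4 Ifit genes were lower with PM than with PH, and no PM sample reached the lowest PH sample for any of them. How many of all tested genes separate in this way was not counted, and genes that were not called, such as Eif3c, also did so. A lack of overlap, here and below, is therefore a description and no support, least of all for Ifit3b. The summed level of the 4 genes was 7.55, 6.70 and 10.4 CPM (read counts scaled to a sample's total) in PM samples 1, 3 and 4, against 33.7, 25.3 and 40.8 CPM in PH samples 1, 3 and 4. This is 8.20 ± 1.92 CPM in PM and 33.3 ± 7.76 CPM in PH (SD, n = 3 each). In bulk RNA, fewer cells expressing a gene and less RNA per cell cannot be told apart.

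Ifit1, the cap sensor, had 3.82, 3.96 and 5.36 CPM in PM samples 1, 3 and 4, against 23.5, 16.8 and 27.2 CPM in PH samples 1, 3 and 4. The PM values lay close together, and the lowest PH value, in sample 3, was still far above the highest PM value. Its log2 fold change, PM over PH, was -2.39 ± 0.19 (SE), with an adjusted p of 7.1e-04 by edgeR's quasi-likelihood test with Benjamini-Hochberg adjustment over 14382 genes. Within the sample ids 1, 3 and 4, Ifit1 was 6.15-, 4.24- and 5.08-fold lower with PM.

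Ifit2, the member with no ISRE core match in its RefSeq promoters, had 2.93, 1.93 and 3.30 CPM in PM samples 1, 3 and 4, against 5.78, 5.42 and 8.75 CPM in PH samples 1, 3 and 4. The groups did not overlap, and sample 3 was the lowest and sample 4 the highest in both. The log2 fold change was -1.34 ± 0.25 (edgeR adjusted p = 0.0262), the smallest of the 4. Within sample ids, Ifit2 was 1.98-, 2.81- and 2.65-fold lower with PM.

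Ifit3, the binding partner of Ifit1 in human cells, had 0.755, 0.710 and 1.49 CPM in PM samples 1, 3 and 4, against 3.57, 2.58 and 4.05 CPM in PH samples 1, 3 and 4. PM sample 4 stood above the other PM samples and below every PH sample. The log2 fold change was -1.80 ± 0.30 (edgeR adjusted p = 0.0179).

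Ifit3b rested on few reads, with 1, 3 and 8 counts in PM samples 1, 3 and 4, against 21, 6 and 31 in PH samples 1, 3 and 4. These are 0.0472, 0.101 and 0.209 CPM in PM and 0.843, 0.516 and 0.771 CPM in PH. The groups did not overlap, but the exact 95% Poisson interval of the highest PM sample, 0.0903 to 0.412 CPM, ran into that of the lowest PH sample, 0.189 to 1.12 CPM. Such intervals cover counting error only. The fitted log2 fold change was -2.47 ± 0.44 (edgeR adjusted p = 0.0237).

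Reads of Ifit3 and Ifit3b are hard to assign. Their longest transcripts in the GENCODE annotation were identical at 1663 of 1697 aligned positions (98.0%), and 51.2% of the 50-base runs in Ifit3 occur in Ifit3b. Of the 1951 such runs in Ifit3b, 878 (45.0%) occur in another gene, 869 of them in Ifit3. For Ifit1 the share found in another gene was 7.13%, shared with Ifit1bl1 and Ifit1bl2, and for Ifit2 it was 0. How the authors treated reads that match several genes is not stated, so the split between Ifit3 and Ifit3b is uncertain. Their sum does not depend on that split, though it does depend on whether shared reads were counted at all. It was 0.802, 0.812 and 1.70 CPM in PM samples 1, 3 and 4, against 4.42, 3.10 and 4.82 CPM in PH samples 1, 3 and 4, and its log2 fold change was -1.90 ± 0.30 (edgeR adjusted p = 0.0132).

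**Figure D2:**
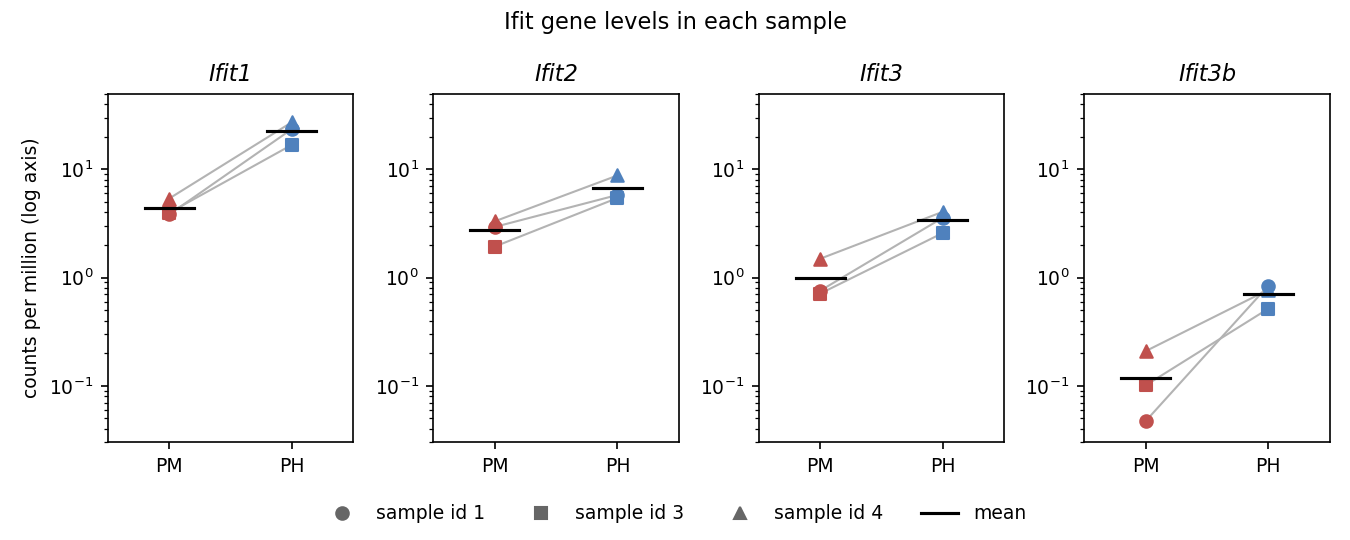
Levels of the 4 Ifit genes in each sample, in CPM on a log axis, with PM left and PH right in each panel. Symbols mark sample ids, grey lines join the PM and PH samples of an id and black bars are group means (n = 3 each). In every panel the PM samples lie below the PH samples, from 3.82 to 5.36 CPM against 16.8 to 27.2 CPM for Ifit1.

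Ifit1, Ifit2 and Ifit3 each passed the test in the lower direction, where 1.64% of all 14382 tested genes did (236 genes). Ifit3b passed as well, but it entered the test through the PH samples alone, so its call and its rank are no support. No member passed in the higher direction, where 0.702% of tested genes did (101 genes). Ordered from the most negative log2 fold change among all tested genes, Ifit3b stood at 6, Ifit1 at 8, Ifit3 at 22 and Ifit2 at 54. The median log2 fold change of all tested genes was 0.01. Nothing in the labels says that the sample ids stand for separate mice or cultures, so the p-values reflect only the spread among these 6 samples, which may be technical. With the sample id as a block, all 4 members were again lower, and the share of all genes called lower was then 8.27%.

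**Figure D3:**
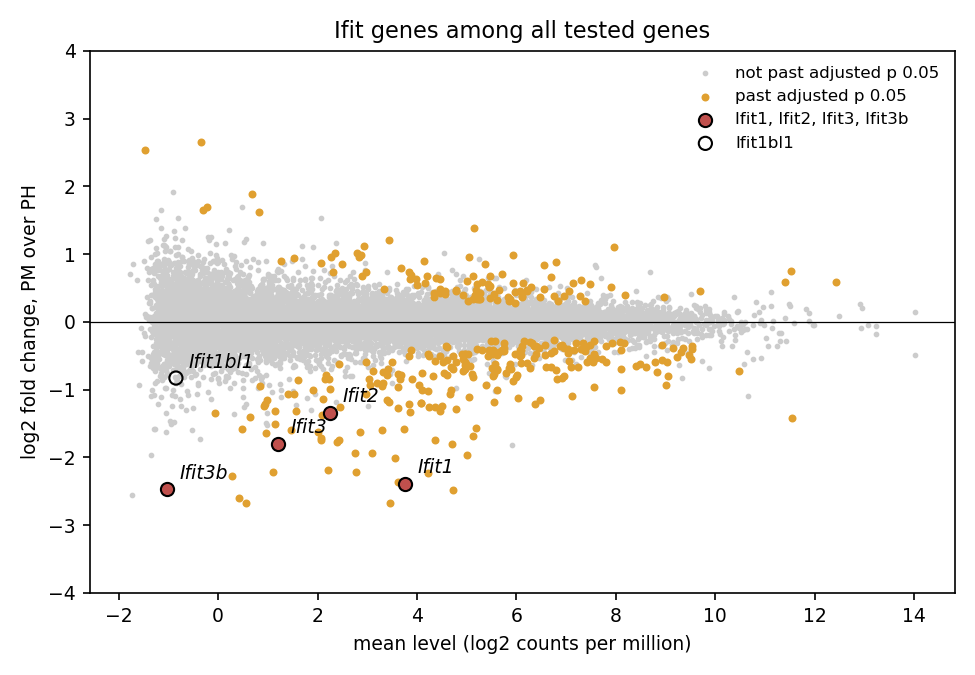
Log2 fold change, PM over PH, against mean level in log2 CPM for all 14382 tested genes, with genes past an adjusted p of 0.05 in orange. The 4 Ifit genes (red) lie along the lower edge of the cloud, and Ifit1bl1 (open circle) lies among genes that did not pass.

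Without the block, and so without the pairing by sample id, the calls of Ifit2, Ifit3 and Ifit3b depended on single samples, each left out in turn. Ifit1 passed in all 6 of these fits, with log2 fold changes from -2.57 to -2.23 and edgeR adjusted p from 6.0e-04 to 0.00670. Ifit2 did not pass without PM sample 3 (adjusted p = 0.0741), without PM sample 4 (0.0676) or without PH sample 4 (0.131), in a range of 0.0398 to 0.131 over the 6 edgeR fits. Ifit3 did not pass without PM sample 3 (0.0629) or PH sample 4 (0.112), in a range of 0.0135 to 0.112 over the 6 edgeR fits. Ifit3b did not pass without PM sample 3 (0.102), PH sample 1 (0.0796) or PH sample 4 (0.130), in a range of 0.0349 to 0.130 over the 6 edgeR fits. Every one of these fits kept the lower direction, and all 4 genes passed without PH sample 3, the shallowest library. With the block, Ifit1, Ifit2 and Ifit3 passed whichever sample id was left out. In those fits 833 to 1277 genes were called lower, of 14140 to 14958 tested. Ifit3b passed too, but its calls in any fit are no support, as it entered the main test through the PH samples alone.

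**Figure D4:**
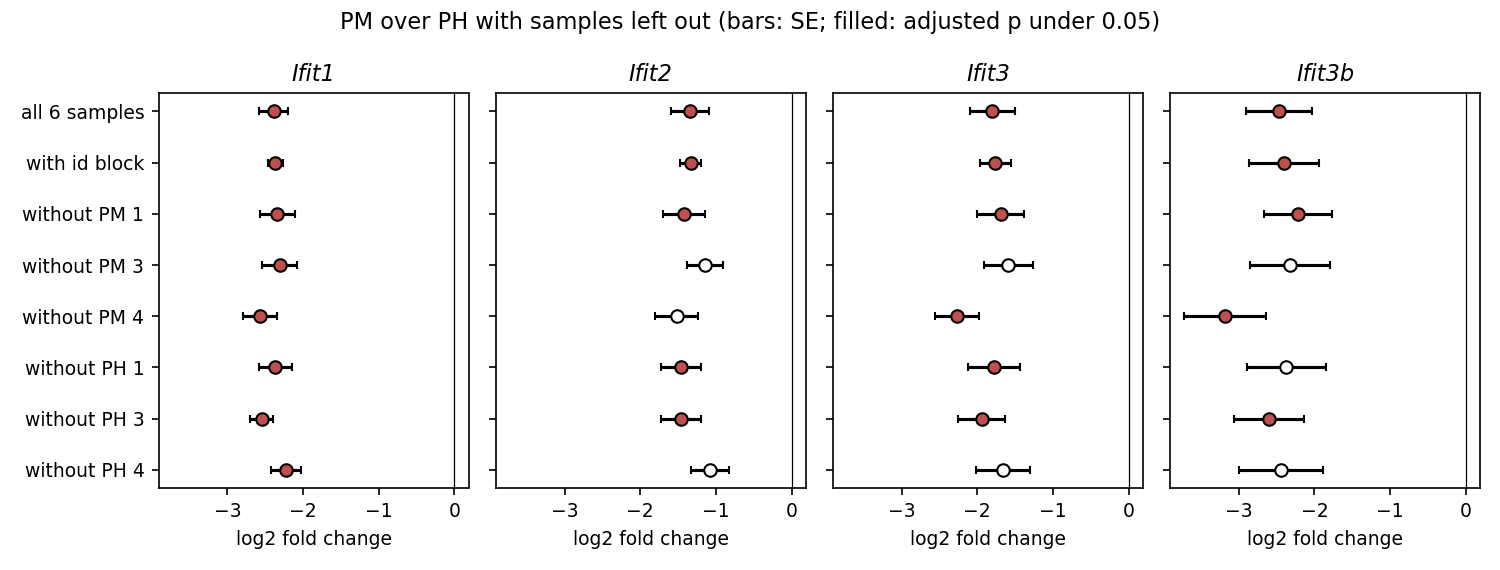
Log2 fold change, PM over PH, of each Ifit gene with all 6 samples, with the sample id as a block, and with each sample left out in turn. Bars are standard errors, filled points passed an adjusted p of 0.05 by edgeR and open points did not. Every point is below 0, and Ifit1 is filled in each row, while the other genes have 2 or 3 open points.

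Per kilobase of exon, Ifit1 was the highest and Ifit3b the lowest of the 4 in each sample. As a level in CPM per kilobase, Ifit1 had 1.65 ± 0.321 in PM and 8.47 ± 1.99 in PH (SD, n = 3 each). Ifit2 had 0.711 ± 0.185 in PM and 1.74 ± 0.479 in PH, and Ifit3 had 0.565 ± 0.251 in PM and 1.95 ± 0.430 in PH. The levels of Ifit2 and Ifit3 lay within their spread of each other in both groups. Exon lengths were not adjusted for runs shared with other genes, which were 51.2% of the 50-base runs in Ifit3 and 0 in Ifit2. How shared reads were counted is unstated, so levels and read shares of Ifit3 and Ifit3b beside the other members are uncertain. Ifit3b had 0.0597 ± 0.0412 in PM and 0.355 ± 0.0858 in PH.

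The shares of Ifit1 and Ifit2 among the reads of the family were also set apart between the bacteria. Ifit1 made up 50.6%, 59.1% and 51.8% of the reads of the 4 genes in PM samples 1, 3 and 4, against 69.8%, 66.3% and 66.7% in PH samples 1, 3 and 4. Ifit2 made up 38.8%, 28.8% and 31.8% in PM samples 1, 3 and 4, against 17.1%, 21.4% and 21.5% in PH samples 1, 3 and 4. Neither pair of ranges overlapped, and these shares are of reads and not scaled by length. The log2 ratio of Ifit1 to Ifit2 within a sample was 0.39, 1.04 and 0.70 in PM samples and 2.02, 1.63 and 1.64 in PH samples, a difference of -1.06. Its exact two-sided permutation p was 0.10, the smallest that 3 against 3 samples allow, and 0.120 after Benjamini-Hochberg adjustment over the 6 pairs of members. The same p was reached by 5 of the 6 pairs, and the exception was Ifit1 over Ifit3b (difference 0.45, exact permutation p = 0.500). The 6 pairs are made from 4 genes, so they are not independent, and those with Ifit3b rest on its few reads. With a prior count of 2 in the ratios, Ifit3 over Ifit3b no longer reached this smallest p. Ifit2 over Ifit3b still did, with a smaller difference, as did the pairs without Ifit3b. With 3 samples a group, no pair could pass a threshold of 0.05 by this permutation test.

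Of the Ifit-like genes between the members, Ifit1bl1 had 0.283, 0.203 and 0.549 CPM in PM samples 1, 3 and 4, against 0.723, 0.860 and 0.472 CPM in PH samples 1, 3 and 4. The groups overlapped, and its log2 fold change of -0.83 ± 0.43 did not pass (edgeR adjusted p = 0.465). Ifit1bl2 had 0, 3 and 2 counts in PM samples and 8, 0 and 5 counts in PH samples, too few to test. Of the 14 other genes within 250 kb of the cluster, 4 were tested and none passed, with none at an unadjusted p under 0.05 and none called by DESeq2. These were Ch25h, which makes an antiviral oxysterol (log2 fold change -0.32 ± 0.36, edgeR adjusted p = 0.780), the lysosomal lipase gene Lipa (0.19 ± 0.13, 0.606), the pantothenate kinase gene Pank1 (0.19 ± 0.15, 0.663) and the predicted gene Gm26902 (-0.44, 0.676). With the block, Lipa was called higher (edgeR adjusted p = 0.00302).

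The interferon genes themselves were almost without reads. Of the 20 type I and III interferon genes listed, 15 had no count in any sample: Ifna1, Ifna2, Ifna5, Ifna6, Ifna7, Ifna9, Ifna11, Ifna12, Ifna13, Ifna15, Ifna16, Ifnab, Ifne, Ifnl2 and Ifnl3. A count of 0 allows up to 3 counts, or 0.0746 to 0.258 CPM depending on the sample. Ifnb1, which encodes interferon beta, had 0, 2 and 3 counts in PM samples 1, 3 and 4, against 4, 1 and 0 in PH samples 1, 3 and 4. Ifna4, Ifna14, Ifnk and Ifnz had at most 2 counts in any sample. A difference in interferon transcripts after overnight stimulation was thus not detectable at this depth.

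Among the genes that carry the interferon signal, the ISGF3 subunit Irf9 was lower with PM and the receptors and kinases did not pass. Of 7 genes tested, 2 passed, both lower, with a median log2 fold change of -0.04. Irf9 had 60.0, 69.8 and 74.1 CPM in PM samples 1, 3 and 4, against 94.8, 97.4 and 97.0 CPM in PH samples 1, 3 and 4, with no overlap (log2 fold change -0.53 ± 0.07, edgeR adjusted p = 0.00708). Its log2 fold change was nearer 0 than those of the Ifit genes. Stat2 had a log2 fold change of -0.45 ± 0.10 and passed with the block (edgeR adjusted p = 8.8e-09) and by DESeq2 but not in edgeR without the block (0.0646). Jak1 had -0.02 and Tyk2 -0.03 (edgeR adjusted p = 0.935 and 0.941).

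A list of 13 genes covered RNA and lipopolysaccharide sensing upstream of interferon, with sensors, adaptors, kinases and transcription factors. Of these, 4 passed and all 4 were lower, with a median log2 fold change of -0.21 over the list. With the block 7 were lower. Irf7, a transcription factor that interferon induces and that drives interferon genes, had 7.31, 5.45 and 7.22 CPM in PM samples 1, 3 and 4, against 31.1, 23.8 and 36.2 CPM in PH samples 1, 3 and 4. Its log2 fold change of -2.23 ± 0.17 (edgeR adjusted p = 5.6e-04) was near that of Ifit1. The RNA helicases Ddx58 (RIG-I), Dhx58 (LGP2) and Ifih1 (MDA5) had -1.20 ± 0.17, -1.01 ± 0.13 and -0.82 ± 0.10. Their edgeR adjusted p were 0.00905, 0.00451 and 0.00423, and Ddx58 did not pass without PM sample 3 (0.0538) or PH sample 4 (0.0598), in a range of 7.3e-04 to 0.0598 over the edgeR fits that left out 1 sample. The kinase Ikbke had -0.30 (edgeR adjusted p = 0.0971) and the adaptor Traf3 -0.21 (0.309), and both were called lower with the block (1.9e-05 and 0.00199). Ikbke was also called by DESeq2 (adjusted p = 0.0219), without the low-count filter (edgeR, 0.00887) and without PM sample 1 (edgeR, 0.0214), in a range of 9.3e-12 to 0.324 over its alternatives. For Traf3 the range was 4.5e-04 to 0.580.

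Genes for the partners of IFIT proteins and for the mRNA cap did not pass. None of the 13 tested eIF3 subunit genes was called by edgeR without the block or by DESeq2, and none had an unadjusted p under 0.05. Their median log2 fold change was 0.07. Eif3a had -0.05 and Eif3c -0.08 (edgeR adjusted p = 0.810 and 0.666). With the block, 2 of the 13 (Eif3f and Eif3k) were called higher, beside 7.00% of all tested genes called higher in that fit. None of the 6 tested genes for cap synthesis and methylation passed in edgeR, with or without the block, or in DESeq2, and 1 had an unadjusted p under 0.05 in edgeR. In this list, Rnmt and Pcif1, which methylate the cap guanine and the adenosine next to the cap, each had -0.02 (edgeR adjusted p = 0.939 and 0.966). Cmtr1, the methyltransferase that adds the mark whose absence Ifit1 recognises, had a log2 fold change of -0.33 ± 0.13 (edgeR adjusted p = 0.305). A p that misses the threshold does not show that these levels were the same.

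Of 16 other antiviral effectors of the interferon response, 15 passed, all lower with PM, and their median log2 fold change was -1.67. Oasl2, an oligoadenylate synthetase-like gene, had -2.48 ± 0.19, and Isg15, a ubiquitin-like modifier, had -1.97 ± 0.09. Zbp1, a sensor of Z-form nucleic acid, had -1.81 ± 0.08, and Oasl1, which in mice represses translation of Irf7 mRNA, had -1.74 ± 0.09. The edgeR adjusted p were 5.6e-04 for Oasl2, 6.6e-05 for Isg15 and Oasl1, and 6.4e-05 for Zbp1. Mx1, a dynamin-like restriction factor, was the exception at -0.19 ± 0.10 (edgeR adjusted p = 0.457), and it was called lower with the block (0.0347, in a range of 0.00230 to 0.689 over the alternatives). Of 8 negative regulators of interferon signalling, none passed in edgeR without the block, 4 had an unadjusted p under 0.05, 5 were lower with the block and 1 (Usp18) was called by DESeq2. The 2 most abundant, Ptpn1 and Socs3, had -0.21 ± 0.09 (edgeR adjusted p = 0.328) and -0.50 ± 0.20 (0.311) without the block. Both were called lower with the block, with edgeR adjusted p of 0.00159 for Ptpn1 (1.2e-08 to 0.674 over the alternatives) and 4.5e-08 for Socs3 (1.4e-42 to 0.733). Without PM sample 1, Socs3 also passed (edgeR adjusted p = 0.0153).

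**Figure D5:**
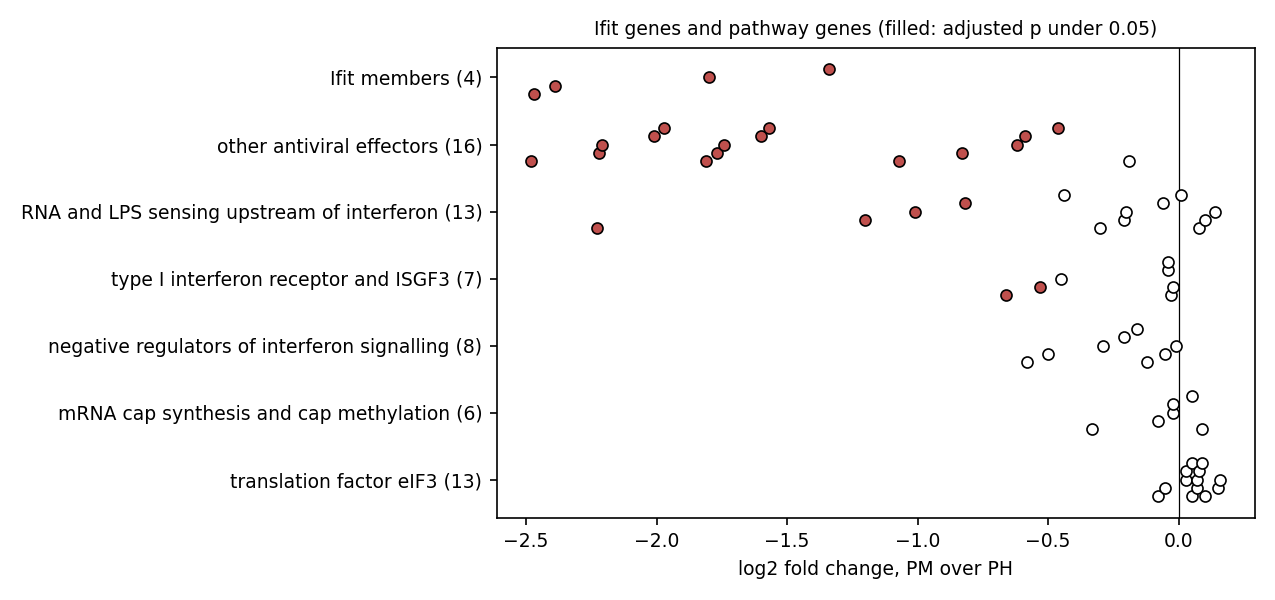
Log2 fold change, PM over PH, of the Ifit genes and of each tested gene in 6 lists of the pathway, with the number of genes in brackets. Filled points passed an adjusted p of 0.05 by edgeR. The Ifit genes and 15 of 16 other antiviral effectors are filled and left of 0, while the eIF3 and cap genes are open and lie around 0.

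The 5 genes with profiles most like the mean of the 4 members were Oas3, H2-T24, Oas2, Rsad2 and Mx2. Likeness was the root mean square distance between centred log2 CPM profiles over the 6 samples, which was 0.0828 for Oas3, 0.176 for H2-T24, 0.180 for Oas2, 0.189 for Rsad2 and 0.198 for Mx2. Ifit3 lay at 0.0984 from the mean profile that it helps to make, Ifit3b at 0.239, Ifit1 at 0.250 and Ifit2 at 0.369. The mean profile was -1.15, -1.20 and -0.49 in PM samples 1, 3 and 4, against 1.03, 0.59 and 1.22 in PH samples 1, 3 and 4, so sample 4 was the highest of its group in both.

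The cells carried dendritic cell markers at like levels in both groups. The summed level of 8 such genes was 8210 to 10200 CPM in PM and 8200 to 10200 CPM in PH. Most of that sum came from Cd74 (mean 3850 CPM in PM, 3760 in PH) and Ccr7 (3940 and 4010 CPM). None of the 7 tested passed or had an unadjusted p under 0.05 in edgeR, DESeq2 called none, and Cd209a was at 0 in all samples. Macrophage markers summed to 1240 to 1680 CPM in PM and 1070 to 1500 CPM in PH, and these ranges overlapped. Monocyte markers moved with the Ifit genes, at 101 to 156 CPM in PM and 159 to 223 CPM in PH. None of the 3 passed in edgeR without the block, 2 had an unadjusted p under 0.05, 2 were lower with the block, and DESeq2 called 1 (Ly6c2). Plasmacytoid dendritic cell markers lay at 40.1 to 41.9 CPM in PM and 45.8 to 50.2 CPM in PH, with their defining gene Siglech at 0 in all samples but PH sample 4, which had 1 count. Most of that level was Tcf4, at a mean of 39.0 CPM in PM and 46.2 CPM in PH. Of the 3 tested, edgeR without the block called none, 1 had an unadjusted p under 0.05, and 1 (Tcf4) was called lower by DESeq2 and with the block. Neutrophil markers overlapped, at 319 to 436 CPM in PM and 419 to 509 CPM in PH. Of 6 tested, neither DESeq2 nor edgeR without the block called any. The 1 gene at an unadjusted p under 0.05 in edgeR was higher with PM. With the block, 3 (S100a8, S100a9 and Camp) were lower with PM. The others were not called in that fit, with log2 fold changes of 0.64 for Elane, 0.22 for Mpo and -0.33 for Ly6g. The part of these cell types in the Ifit difference was not tested. Totals ranged from 21192990 to 38231719 counts in PM samples and from 11624367 to 40233148 in PH samples. The shallowest, PH sample 3, had the lowest level of each Ifit gene among the PH samples. It also stood apart in the predicted gene Gm42418, at 4010 CPM, against 867 to 1460 CPM in the other samples. Without this sample, Ifit1, Ifit2 and Ifit3 were called lower, beside 164 of 14812 tested genes. Ifit3b was called as well, which is no support.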

How the data were processed

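The authors deposited whole-number read counts per gene, not normalized. The build was GRCm38 and the tools were featureCounts 1.6.4, STAR 2.5.3a and Trimmomatic, per the submitters' processing notes, and per the labels' protocols the libraries were made from polyadenylated RNA with a strand-marking kit. Which annotation release and strand setting were used, and how multi-mapping reads were treated, is unstated there. The series lists 8 libraries (4 PM, 4 PH), for which the deposited table has 6 columns. By name, 2 columns (PM sample 1 and PH sample 3) match 2 runs each, and whether they hold 1 run or both is not given. Each column was used as 1 sample, and 0 columns were left out.

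Counts were tested with edgeR 4.0.16 in R 4.3.3 (TMM scaling, filterByExpr with a minimum count of 10, which here asks for 0.367 CPM in at least 3 samples, and the robust quasi-likelihood test), with Benjamini-Hochberg adjustment over 14382 genes and a threshold of 0.05. The fit was tested on simulated data. CPM are counts scaled to a column's total. Sample ids were taken to pair the samples, from the counts and not the labels: deviations from the treatment means correlated at 0.44, 0.32 and 0.24 for the same ids and from -0.35 to 0.07 for different ids. Deviations within a group of 3 sum to 0, so the values for different ids are tied to the others and are no separate check. The fit without the id block is the main one, so calls above do not use this pairing unless the block is named. With the block, the SE was 0.10 for Ifit1, 0.14 for Ifit2, 0.21 for Ifit3 and 0.46 for Ifit3b. Without it, these SE were 0.19, 0.25, 0.30 and 0.44. No 2 columns agreed within sampling noise (chi-square per degree of freedom of at least 4.63).

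Alternatives were the block, RLE scaling, totals only, DESeq2 1.42.0, other filters, and leaving out samples. The members and gene lists were chosen with earlier results of these data known. Besides the members, genes named are the Ifit-like rows and tested neighbours, in each list the 4 with the lowest adjusted p among those past the threshold and the 2 most abundant not past it, interferon genes with no count, and the 5 genes with the nearest profiles. Stat2, Usp18, Cmtr1, the interferon genes with counts, Eif3f, Eif3k, Gm42418 and the marker genes were named after their values were seen. Promoters and starts are RefSeq's. Protein sequences were not used here, and some genes that the rule names are not reported here.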

Additional observations from a re-analysis of the deposited data

How the results depend on the processing

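The lower levels of the 4 Ifit genes with PM kept their direction in every alternative that gave a value. Ifit1 passed the edgeR threshold in each. Without the block, leaving out 1 sample gave 142 to 417 changed genes, against 337 with all samples, 1 to 4 changed Ifit genes and 19 to 26 changed pathway genes, against 21. The count of changed Ifit genes was 1 without PM sample 3 and without PH sample 4. Counts of Ifit genes in this section include Ifit3b, whose calls are no support, as stated above. Over all fits that left samples out, the log2 fold change ranged from -1.52 to -1.08 for Ifit2, -2.27 to -1.59 for Ifit3 and -3.18 to -2.02 for Ifit3b (-3.18 to -2.22 without the block). The replicate block on sample ids gave 2197 changed genes (1190 lower and 1007 higher), among them all 337 called without it, 33 pathway genes and all 4 Ifit genes. With an id left out as well it gave 1529 to 2145 genes (1580 without id 3) and 29 to 32 pathway genes. DESeq2 called 584 genes and 3 Ifit genes, with no adjusted p for Ifit3b, and no low-count filter gave 846 genes. With CPM above 1 in 3 samples, Ifit3b was not tested. Leaving out the 2 columns that match 2 runs, an alternative chosen after seeing the data, gave 629 genes and 4 Ifit genes. Uncalled values near 0 changed sign: with totals only, Jak1, Rnmt and Pcif1 at 0.01; without those 2 columns, Tyk2 at 0.12, Rnmt at 0.02 and Pcif1 at 0.10; leaving out 1 sample, Tyk2 (-0.10 to 0.05), Pcif1 (-0.07 to 0.05) and Rnmt (-0.04 to 0.00); in the block with an id left out, Jak1 and Eif3a at 0.00 and Rnmt at 0.01. The difference in log2 ratio of Ifit1 over Ifit3b was -0.21 with a prior count of 2 and -0.01 to 0.82 when 1 sample was left out (-0.01 without PM sample 1). The cause was not tested for any of these. Depth limits Ifit3b most, at 12 counts in PM and 58 in PH. Comparing proteins between members was not run.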
